A study of Mus musculus with 6 samples.

Results

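Fibroblasts remodel the tissue around them with secreted and membrane-bound metalloproteases and hold those enzymes in check with inhibitors from the same cells. Here 9 such genes were followed in fibroblasts of the mouse mammary fat pad: the matrix metalloproteases Mmp2, Mmp3 and Mmp14, the ADAMTS proteases Adamts1, Adamts4 and Adamts5, and the tissue inhibitors of metalloproteases Timp1, Timp2 and Timp3. They were taken by gene symbol from a table of counts for 12023 genes. Of the 9, 8 had a row and all 8 passed the filter on low counts. Adamts5 had no row and was not analysed here. Each gene in that table reached at least 6 counts in at least 1 library.

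The cells came from healthy BALB/c or C57BL/6 females of 8 to 12 weeks, with no treatment and no transgene named, and were grown for 4 days on plastic coated with rat-tail collagen. The growth notes give 8 weeks. Fibroblasts were isolated by collagenase digestion and magnetic separation, and the strain labels read BALB/C and C57BL6. Each strain had 3 biological replicates, and no label states whether a replicate is 1 animal or a pool. RNA was measured as counts from the 3′ ends of polyadenylated transcripts. The series sets out to compare the normal mammary fibroblasts of both strains at baseline.

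Matrix metalloproteases (MMPs) are made as inactive proenzymes and, once activated, cut collagens, gelatin and other matrix proteins around a catalytic zinc ion. ADAMTS enzymes are related secreted proteases, several of which cut the large proteoglycans aggrecan and versican. TIMPs block these enzymes by inserting their amino end into the active site, where the first cysteine binds the zinc. TIMP3 is the member best known for inhibiting ADAMTS enzymes, and TIMP2 both inhibits the membrane protease MMP14 and helps it to activate pro-MMP2.

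Both sides of this contact can be read from the reference transcripts. For the proteases, the 33 bases that encode the zinc-binding stretch of the active site are shown from GENCODE vM21 (GRCm38, of which mm10 is another name), with the codons of the 3 zinc-binding histidines and the catalytic glutamate in capitals.
Mmp2: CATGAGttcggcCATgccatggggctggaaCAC
Mmp3: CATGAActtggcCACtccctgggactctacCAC
Mmp14: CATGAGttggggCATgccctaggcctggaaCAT
Adamts1: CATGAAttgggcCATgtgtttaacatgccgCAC
Adamts4: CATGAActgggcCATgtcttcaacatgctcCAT
Adamts5: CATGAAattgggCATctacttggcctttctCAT
Each of these 6 coding sequences held this stretch once. The closest pairs were Mmp2 with Mmp14 and Adamts1 with Adamts4, both with 27 of 33 bases identical, while Adamts4 shared 19 of 33 with Adamts5. The stretch lies within 1 coding exon in the MMPs, at chr8:92839279-92839311, chr9:7449775-7449807 and chr14:54437627-54437659, all on the plus strand, for Mmp2, Mmp3 and Mmp14. An intron splits it in the ADAMTS genes.

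For the inhibitors, the 33 bases that begin the mature protein are shown, with the codons of the first cysteine, which binds the zinc of the protease, and of the next cysteine in capitals.
Timp1: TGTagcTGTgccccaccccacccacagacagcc
Timp2: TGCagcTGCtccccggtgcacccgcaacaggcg
Timp3: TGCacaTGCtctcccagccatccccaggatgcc
They lie in coding exons at chrX:20871111-20871143 on the plus strand, chr11:118354980-118355012 on the minus strand and chr10:86300923-86300955 on the plus strand. Pairs of the TIMP stretches shared 19 or 20 of 33 bases.

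Total counts per library were 1035485 to 4665896, and 3 counts corresponded to 0.612 to 2.90 CPM, which are counts divided by the library's total, adjusted with TMM factors and scaled to a common depth. C57BL/6 replicate 1 stood apart, with a mean correlation across genes of 0.779 with the other 5 libraries, against 0.870 to 0.910 for the others. Of 8752 tested genes, 18 differed between the strains in edgeR. Fibroblast markers were present, with Col1a2 at 597 to 5114 CPM, while Lum had no row and Fap was at 0 in at least 1 library. Wherever 3 values are given for a strain, they follow its replicates 1, 2 and 3. Epithelial markers were present too, at 0.170%, 0.994% and 0.743% of all counts in the BALB/c libraries and 1.33%, 0.266% and 0.916% in the C57BL/6 libraries. Fibroblast markers were 0.581%, 0.140% and 0.368% and then 0.131%, 0.673% and 0.262% in the same order, below the epithelial share in 4 of 6 libraries. In such bulk samples fewer cells of a type and less RNA per cell cannot be told apart.

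The inhibitors were the more abundant side in every library. Counts from 3′ ends depend little on transcript length, so CPM of different genes were set side by side. Averaged over the 6 libraries, Timp1 was at 3282 ± 742 CPM (SD, n = 6), followed by Timp3 at 546 ± 161 CPM, Mmp14 at 382 ± 194 CPM, Timp2 at 269.5 ± 82.2 CPM and Mmp2 at 137 ± 65.6 CPM. Mmp3 at 46.2 ± 29.7 CPM, Adamts1 at 40.6 ± 7.31 CPM and Adamts4 at 25.5 ± 21.7 CPM were the lowest. Timp1 lay above Timp3, Mmp14 above Timp2 and Mmp2 above Mmp3 in 6 of 6 libraries each. Timp3 lay above Mmp14, and Timp2 above Mmp2, in 5 of 6. Mmp3 lay above Adamts1 in 2 of 6, so the order among the low members varied between libraries.

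**Figure D1:**
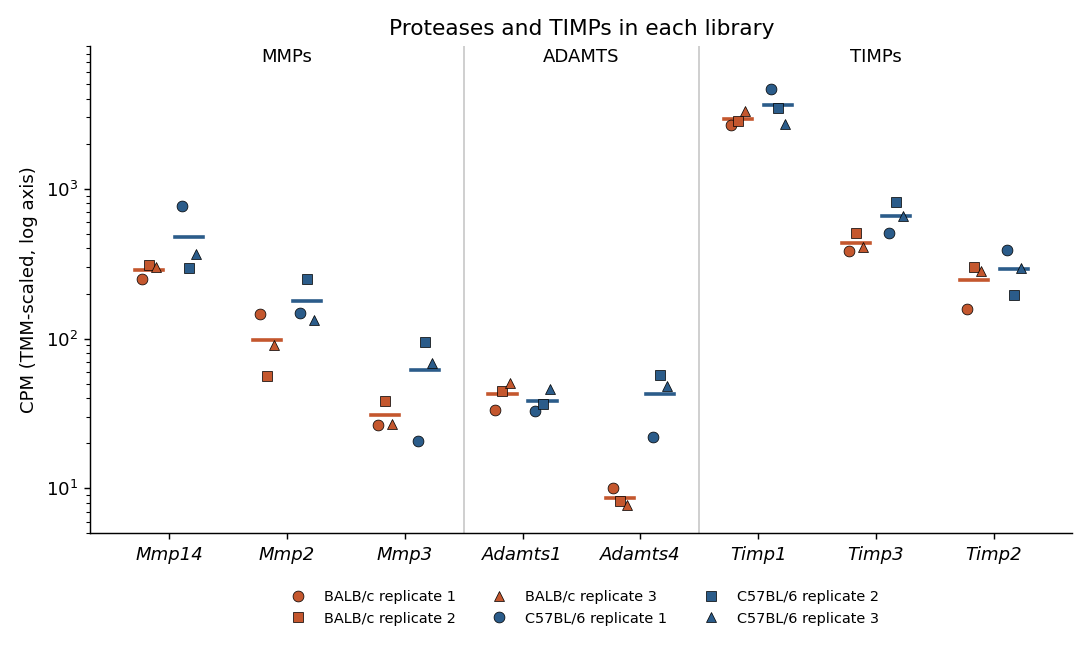
CPM of the 8 measured members in each library on a log axis, with 3 points and a mean line per strain (orange BALB/c, blue C57BL/6). Adamts4 is at 7.74 to 10.005 CPM in BALB/c and 22.2 to 57.1 CPM in C57BL/6, and Timp1 lies above every other member.

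Between the strains, 0 of the 8 members passed an adjusted p of 0.05 over all tested genes in edgeR, where 0.206% of all tested genes did. By unadjusted p, 1 of the 8, Adamts4, was under 0.05, as were 3.86% of all tested genes. In 7 of the 8 the mean CPM was higher in C57BL/6. The median log2 difference of the members, BALB/c minus C57BL/6, was -0.67, against 0.01 over all tested genes, of which 48.9% had a difference below 0. BALB/c and C57BL/6 libraries did not overlap in 2 of the 8, Adamts4 and Timp3, against 11.4% of all tested genes. Both were lower in BALB/c, as were 6.22% of all tested genes. Direction did not hold for Timp1 and Adamts1, whose differences changed sign to 0.06 and -0.02 when limma-voom weighted the libraries by quality.

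**Figure D2:**
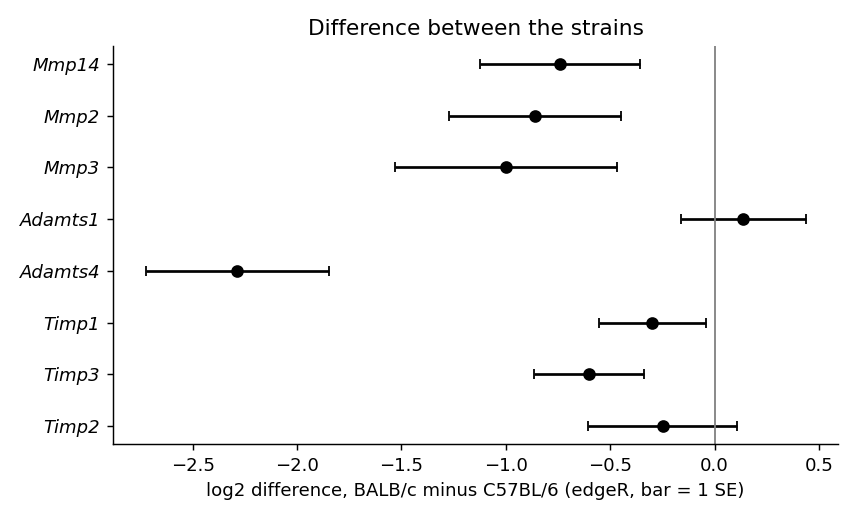
Log2 difference, BALB/c minus C57BL/6, of the 8 measured members from edgeR, with bars of 1 standard error and a line at 0. Adamts4 lies at -2.29, Adamts1 at 0.14 and the other 6 between -1.0 and -0.25.

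Adamts4, an aggrecanase that cuts aggrecan and versican, differed most. It had 15, 23 and 8 counts in the BALB/c libraries, which gave 10.005, 8.23 and 7.74 CPM. The C57BL/6 libraries had 29, 73 and 235 counts, which gave 22.2, 57.1 and 48.0 CPM. Every BALB/c library lay below every C57BL/6 library, and C57BL/6 replicate 1 was the lowest of its strain. Mean levels were 8.66 ± 1.19 CPM (SD, n = 3) for BALB/c against 42.4 ± 18.1 CPM (SD, n = 3) for C57BL/6, a ratio of 4.89. The log2 difference was -2.29 ± 0.44 (SE), with an adjusted p of 0.222 in edgeR, and it ranked at 40 of 8752 genes by unadjusted p.

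The call on Adamts4 depended on the test and on which libraries were used. Without C57BL/6 replicate 1 the log2 difference was -2.59 ± 0.27 (edgeR adjusted p = 0.0217, where 0.276% of tested genes passed). With any other single library left out Adamts4 did not pass (edgeR adjusted p = 0.521 to 0.992). It passed in DESeq2 (adjusted p = 0.00210, 0.811% of genes passing) and in limma-voom with library quality weights (adjusted p = 0.0134, 0.651% passing). In limma-voom without these weights it did not pass (adjusted p = 0.538). Over the 16 alternatives the difference stayed between -2.59 and -2.03, with adjusted p from 0.00210 to 0.997 across these tools.

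Adamts4 lies on chromosome 1, 171250421 to 171260637, on the plus strand. The macrophage and leukocyte markers were 0.0533% to 0.0737% of all counts in BALB/c and 0.0611% to 0.108% in C57BL/6, with all 8 listed genes in the table and Ptprc and Adgre1 at 0 in at least 1 library. All 6 tested had differences below 0, with a median of -0.90, and their part in the difference of Adamts4 was not tested. With the epithelial marker share as a covariate Adamts4 was at -2.37 ± 0.39 (edgeR adjusted p = 0.123).

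Adamts1, a protease of versican and aggrecan, varied least between libraries. It had 50, 124 and 52 counts in the BALB/c libraries, which gave 33.4, 44.4 and 50.3 CPM. In C57BL/6 there were 43, 47 and 226 counts, or 32.8, 36.7 and 46.1 CPM. The libraries overlapped over almost their whole range, and its highest library was only 1.53 times its lowest, the narrowest span of the 8. BALB/c minus C57BL/6, its log2 difference was 0.14 ± 0.30 (edgeR adjusted p = 0.958). Leaving out a library moved it to 0.0063 without BALB/c replicate 3, 0.020 without C57BL/6 replicate 1, and 0.28 without BALB/c replicate 1 or C57BL/6 replicate 3. The ratio of Adamts4 to Adamts1 CPM was 0.300, 0.185 and 0.154 in BALB/c and 0.674, 1.55 and 1.04 in C57BL/6, so that Adamts4 exceeded Adamts1 in 2 libraries, both C57BL/6. Adamts1 lies on chromosome 16, 85793827 to 85803113, on the minus strand, 53.1 kb from the unmeasured Adamts5.

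Mmp14 is the membrane-anchored protease that activates pro-MMP2 and cuts fibrillar collagen. Among the 5 measured members that are proteases, it made up most of the summed level in 5 of 6 libraries. It had 372, 866 and 310 counts in the BALB/c libraries, which gave 248, 310 and 300.0 CPM. The C57BL/6 libraries had 1008, 379 and 1808 counts, which gave 770.0, 296 and 369 CPM. C57BL/6 replicate 1 was far above the other 5 libraries, which overlapped. The log2 difference was -0.74 ± 0.38 (edgeR adjusted p = 0.954), and without C57BL/6 replicate 1 it was -0.23 ± 0.20 (edgeR adjusted p = 0.999). Mmp9, a protease outside the members and outside this sum, lay above Mmp14 in 3 libraries, BALB/c replicates 2 and 3 and C57BL/6 replicate 3. Mmp14 lies on chromosome 14, 54431612 to 54445364.

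Mmp2, gelatinase A, which cuts denatured collagen and type IV collagen, had 219, 158 and 93 counts in the BALB/c libraries, which gave 146, 56.5 and 90.0 CPM. In C57BL/6 there were 193, 319 and 657 counts, or 147, 249 and 134 CPM. The strains overlapped through BALB/c replicate 1. For Mmp2 the log2 difference was -0.86 ± 0.41 (edgeR adjusted p = 0.954), and -0.52 ± 0.40 without C57BL/6 replicate 2. In each strain the library with the lowest epithelial marker share, BALB/c replicate 1 and C57BL/6 replicate 2, had the highest Mmp2. These libraries also had the highest fibroblast marker share of their strain, at 0.581% and 0.673%. Mmp2 did not follow the epithelial share throughout, since C57BL/6 replicate 1, with the highest share, had more Mmp2 than C57BL/6 replicate 3. With the epithelial share as a covariate the Mmp2 difference was -1.10 ± 0.25 (edgeR adjusted p = 0.332). Mmp2 lies on chromosome 8, 92827291 to 92853420.

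Mmp3, stromelysin 1, which cuts proteoglycans and laminin and activates other proMMPs, had 40, 107 and 28 counts in the BALB/c libraries, which gave 26.7, 38.3 and 27.1 CPM. The C57BL/6 libraries had 27, 122 and 339 counts, which gave 20.6, 95.4 and 69.2 CPM. C57BL/6 replicates 2 and 3 were above every BALB/c library, and C57BL/6 replicate 1 was the lowest of all. The log2 difference was -1.0 ± 0.53 (edgeR adjusted p = 0.954), and without C57BL/6 replicate 1 it was -1.40 ± 0.27 (edgeR adjusted p = 0.193). Without C57BL/6 replicate 2 it was -0.56 ± 0.54. The last 500 nt of its transcript have 1 near-identical copy, in Gm15242 over 211 nt, so its counts are uncertain.

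**Figure D3:**
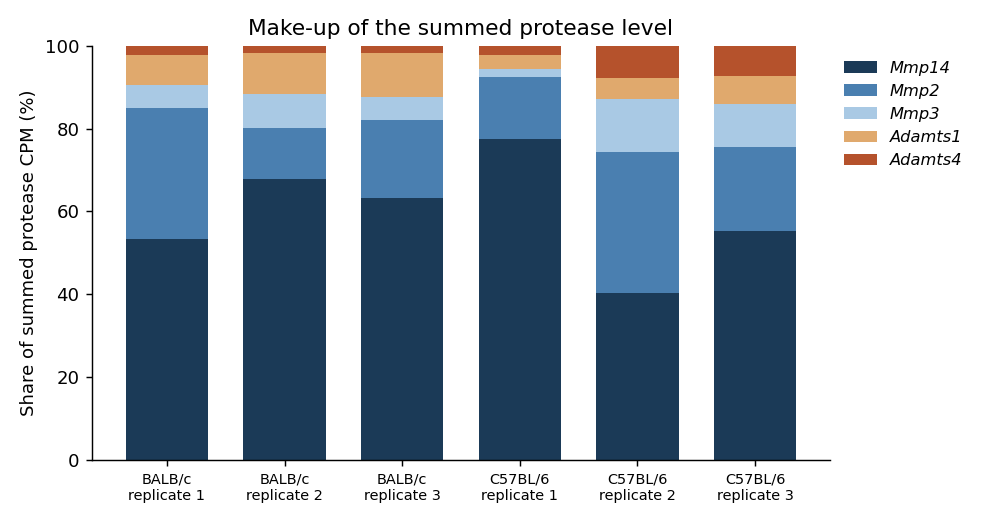
Share of each measured member protease in their summed CPM in each library, in percent, as stacked bars. Mmp9 is not in the sum. Mmp14 takes 40.3% to 77.5%, Mmp2 12.4% to 33.9% and Adamts4 1.63% to 2.23% in the BALB/c libraries and C57BL/6 replicate 1, against 7.77% and 7.20% in C57BL/6 replicates 2 and 3.

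Timp1, a secreted inhibitor of most soluble MMPs, had 4011, 7966 and 3414 counts in the BALB/c libraries, which gave 2676, 2851 and 3304 CPM. In C57BL/6 there were 6077, 4463 and 13378 counts, or 4642, 3488 and 2730 CPM. The strains overlapped, since C57BL/6 replicate 3 lay below 2 BALB/c libraries. Its log2 difference was -0.30 ± 0.26 (edgeR adjusted p = 0.954). Without C57BL/6 replicate 1 that difference was -0.085 ± 0.19, and without C57BL/6 replicate 3 it was -0.48 ± 0.26. Timp1 was 74.2% to 83.8% of the summed TIMP level. Timp1 lies on chromosome X, 20870166 to 20874735, within Syn1, a gene on the opposite strand, with no shared exon.

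Timp3, which binds to the extracellular matrix, had 579, 1418 and 422 counts in the BALB/c libraries, which gave 386, 508 and 408 CPM. The C57BL/6 libraries had 666, 1038 and 3211 counts, which gave 509, 811 and 655 CPM. The strains did not overlap, but BALB/c replicate 2 and C57BL/6 replicate 1 were nearly equal. The log2 difference was -0.60 ± 0.26 (edgeR adjusted p = 0.954), and -0.76 ± 0.20 without C57BL/6 replicate 1 (edgeR adjusted p = 0.523). Timp3 lies on chromosome 10, 86300372 to 86349506, and its last 1733 bases overlap an exon of Syn3 on the opposite strand. Syn3 had no row, and no label states whether counting used strand.

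Timp2, the inhibitor that forms a complex with MMP14 and pro-MMP2, had 235, 837 and 292 counts in the BALB/c libraries, which gave 157, 299.6 and 283 CPM. In C57BL/6 there were 508, 251 and 1441 counts, or 388, 196 and 294 CPM. The strains overlapped. For Timp2 the log2 difference was -0.25 ± 0.36 (edgeR adjusted p = 0.954). It was near 0 without C57BL/6 replicate 1, at -0.0022, or without BALB/c replicate 1, at -0.014. Without replicate 2 of BALB/c it was -0.42, and without that of C57BL/6 -0.45. Timp2 lies on chromosome 11, 118301069 to 118355740. Its CPM was below that of Mmp14 in all 6 libraries, at 0.504 to 0.967 times the Mmp14 level. Among all pairs of members, the library patterns of Mmp14 and Timp2 were the closest, with a root mean square distance of 0.33 in log2 CPM centred on each gene's mean, followed by Mmp14 and Timp1 at 0.34. The pattern of Adamts4, which had the widest range of the members across libraries, was far from Timp2, at 1.20.

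Set against each other, proteases and inhibitors gave a lower ratio in BALB/c. In the BALB/c libraries the 5 measured proteases summed to 464, 457 and 475 CPM and the 3 TIMPs to 3218, 3658 and 3995 CPM. In the C57BL/6 libraries the proteases summed to 993, 735 and 666 CPM and the TIMPs to 5539, 4496 and 3679 CPM. TIMP transcripts thus exceeded protease transcripts 7.78 ± 0.76 times in BALB/c and 5.74 ± 0.33 times in C57BL/6 (SD, n = 3 each). The log2 ratio of proteases to TIMPs was -2.95 ± 0.14 in BALB/c and -2.52 ± 0.08 in C57BL/6, a difference of -0.44 with no overlap between the libraries. As a score over chosen members it was not tested. The difference was -0.42 without C57BL/6 replicate 1. For the MMPs alone over the TIMPs it was -0.44.

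The ADAMTS enzymes were set against Timp3 in the same way. The log2 ratio of Adamts1 and Adamts4 together to Timp3 was -3.08 ± 0.24 in BALB/c and -3.04 ± 0.21 in C57BL/6 (SD, n = 3 each), with overlapping libraries and a difference of -0.04. With mean log2 CPM in place of sums the difference was -0.39.

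The direction of the protease to TIMP ratio turned when Mmp9 was counted as a protease, an alternative chosen after its counts were seen. Mmp9, gelatinase B, was at 237, 1457 and 1085 CPM in the BALB/c libraries. The C57BL/6 libraries had 658, 245 and 464 CPM. It ranged from 25.0% to 76.1% of the proteases when added to them. The difference in log2 ratio was then 0.39, higher in BALB/c, with overlapping libraries. With Timp1 left out of the inhibitors, also chosen after seeing the counts, it was -0.26, again with overlapping libraries. The proteases were then 1.11 times Timp2 and Timp3 together in C57BL/6 replicate 1 and 0.567 to 0.855 times in the others.

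**Figure D4:**
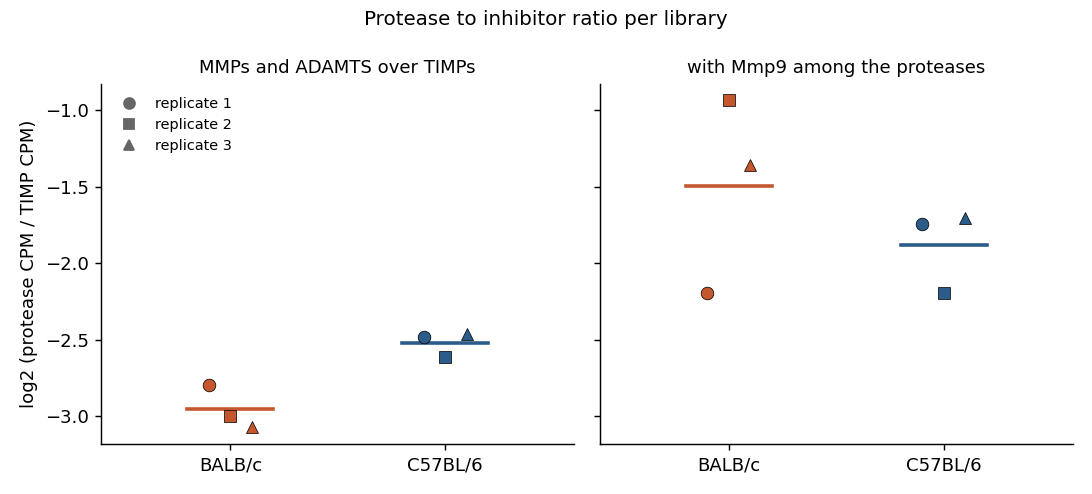
Log2 ratio of summed protease CPM to summed TIMP CPM in each library, with the mean of each strain as a line, for the 5 member proteases (left) and with Mmp9 added (right). On the left the BALB/c libraries lie at -3.07 to -2.79 and the C57BL/6 libraries at -2.61 to -2.47, and on the right the strains overlap.

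In each strain Mmp9 followed the order of the epithelial marker share, from lowest to highest. BALB/c replicate 1 and C57BL/6 replicate 2, the libraries with the lowest share, had the lowest Mmp9 of their strain and the highest Mmp2. They also had the highest fibroblast marker share of their strain. The ratio of Mmp9 to Mmp2 was 1.63 and 0.984 in these libraries and 3.46 to 25.8 in the other 4. The log2 difference of Mmp9 between the strains was 1.02 ± 0.65 (edgeR adjusted p = 0.954). Without BALB/c replicate 2 it was 0.53 ± 0.69, and with the epithelial share as a covariate 1.15 ± 0.26 (edgeR adjusted p = 0.368). The part of epithelial cells or of fibroblasts in these levels was not tested.

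**Figure D5:**
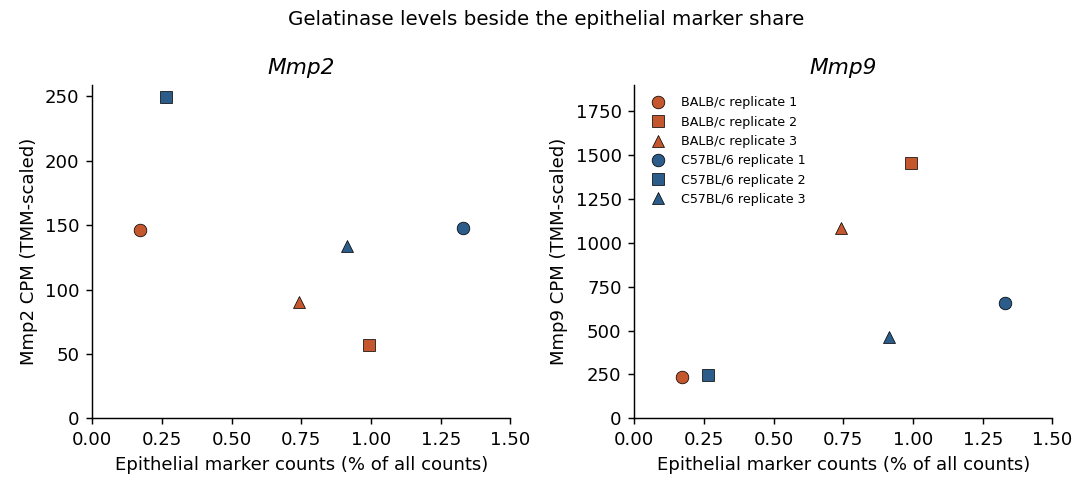
CPM of Mmp2 (left) and Mmp9 (right) against the share of epithelial marker counts in percent of all counts, with 1 point per library. The libraries at 0.170% and 0.266% have the highest Mmp2 of their strain, at 146 and 249 CPM, and the lowest Mmp9, at 237 and 245 CPM.

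Other genes of the system were read from lists of family members, activators, inhibitors and substrates. Of 20 other MMPs, 9 were in the table and 7 were tested, with 0 past the threshold and a median log2 difference of 0.30, against 0.01 over all tested genes. Besides Mmp9, Mmp23 had a log2 difference of 0.62 ± 0.52 and Mmp15, a membrane-type MMP, one of -1.36 ± 0.87 (edgeR adjusted p = 0.954 for both). Mmp15 was at -0.39 without C57BL/6 replicate 1 and -2.24 without BALB/c replicate 2. Mmp23 was at 0.12 without BALB/c replicate 1, 0.34 without C57BL/6 replicate 3 and 1.20 without C57BL/6 replicate 2. Of 22 other ADAMTS and ADAMTS-like genes, 4 were tested and 0 passed, with a median of -0.14. Adamts14, a procollagen N-propeptidase, was at -0.70 ± 0.51 and Adamts6 at 0.64 ± 0.50 (edgeR adjusted p = 0.954 for both). Adamts14 was at -0.35 without BALB/c replicate 2, -0.36 without C57BL/6 replicate 2 and -1.19 without BALB/c replicate 1. Adamts6 was at 0.31 without C57BL/6 replicate 1, 0.38 without BALB/c replicate 1 and 1.06 without C57BL/6 replicate 2.

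Among activators of the proenzymes, 8 of 11 were tested and 1 passed, higher in BALB/c. This was Plau, urokinase, which generates plasmin, with 40.0, 97.4 and 77.4 CPM in BALB/c and 2.29, 4.69 and 4.08 CPM in C57BL/6 and a log2 difference of 4.24 ± 0.48 (edgeR adjusted p = 0.0275, where 0.0686% of tested genes passed in this direction). The median of the list was -0.20. Plau kept this call in 10 of 16 alternatives, and in the other 6 the highest edgeR or limma adjusted p was 0.326. Among other inhibitors and clearance genes, 5 of 8 were tested and 0 passed, with a median of -0.11. Serpine2, an inhibitor of urokinase and thrombin, was at -0.89 ± 0.30 in log2 difference (edgeR adjusted p = 0.954), and Lrp1, the endocytic receptor that clears proteases and TIMPs, was at -0.09 ± 0.37 (edgeR adjusted p = 0.973) and at -0.38 to 0.19 with single libraries left out, on either side of 0. Timp4 and A2m had no row, and Reck, a membrane-bound MMP inhibitor, fell below the filter.

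The genes whose library patterns were nearest to 3 of the members were found among 4451 candidates by the same distance, as a description over 6 libraries. For Mmp14 they were Cd81, Ppp1r37 and Dtx2 at 0.07 to 0.08, each highest in C57BL/6 replicate 1. For Timp1 they were Rrp7a, Pofut2 and Psmb10 at 0.05 to 0.07. For Adamts4 they were Pop4, Snhg6 and Pf4 at 0.33 to 0.37. Pop4 was at 15.0 to 18.4 CPM in BALB/c and 71.0 to 103 CPM in C57BL/6. No gene was as near to Adamts4 as the nearest genes were to Mmp14 or Timp1. The distance is not scaled to a gene's own spread. Centred log2 CPM spanned 2.74 for Adamts4, 1.63 for Mmp14 and 0.79 for Timp1.

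Mmp3 lies on chromosome 9, 7445822 to 7455975, 46.4 kb from Mmp10, which encodes stromelysin 2 and was picked out only once its counts were known. The ratio of Mmp3 to Mmp10 CPM was 0.784, 1.03 and 0.875 in the BALB/c libraries. It was 1.23 and 1.37 in C57BL/6 replicates 2 and 3. In C57BL/6 replicate 1 it was 6.75, where Mmp10 had 4 counts. The log2 difference of Mmp10 was -0.36 ± 0.83 (edgeR adjusted p = 0.959). It was -0.89 without C57BL/6 replicate 1 and 0.28 without C57BL/6 replicate 2.

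Because these neighbours had similar levels in 5 of 6 libraries, the 100 bases before their transcription starts are shown, from RefSeq on GRCm38.p6, both on the plus strand. Capitals mark the AP-1 motif TGANTCA and the TATA motif TATAAA, searched on both strands.
Mmp3, chr9:7445722-7445821: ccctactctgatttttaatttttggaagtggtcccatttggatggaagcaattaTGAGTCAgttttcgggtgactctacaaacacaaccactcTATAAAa
Mmp10, chr9:7502242-7502341: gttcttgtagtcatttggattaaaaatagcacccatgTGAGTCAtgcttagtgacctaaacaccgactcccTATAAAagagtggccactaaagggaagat
The AP-1 motif begins 46 bases before the start in Mmp3 and 63 in Mmp10. The TATA motif begins 7 bases before the start in Mmp3 and 29 in Mmp10, and these distances depend on the annotated starts. The AP-1 motif occurs within 250 bases before the start in 6.75% of 32851 promoters, and the TATA motif in 12.4%. Of the 9 members 6 had a promoter entry. Among these Mmp3 alone held TGANTCA, and Mmp3 and Adamts1 held TATAAA. A match is a description of letters and does not show that a factor binds there.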

How the data were processed

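The table the authors deposited holds raw read counts, 1 row per symbol and 1 column per library. The submitters' processing notes name the tools STAR 2.4.2a, HTSeq and bcl2fastq and the build mm10. No label gives their settings, the use of strand or of molecular identifiers. The 9 members and all lists were chosen with earlier results of these data known.

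The strain test across genes used edgeR 4.0.16 (R 4.3.3): filterByExpr, TMM scaling (factors 0.866 to 1.06), a robust quasi-likelihood fit with strain as the only term, two-sided, with Benjamini-Hochberg adjustment over 8752 genes and a threshold of 0.05. CPM are counts per TMM-scaled total. The standard error is the log2 difference divided by the square root of F. P-values test the strain difference against the spread between the 3 libraries per strain, with that spread estimated partly from all tested genes. Log2 CPM for library distances used a prior count of 2. Alternatives used DESeq2 1.42.0 and limma 3.58.1. The edgeR fit was tested on simulated data. From other lists, genes past the threshold were named, or else the 2 with the lowest p and the 2 most abundant. Of these, 1 gene is not reported here. Patterns were compared for Mmp14, Adamts4 and Timp1 with other genes averaging 5 or more in log2 CPM. Symbols of clones, pseudogenes and predicted genes were not used there. Copies were searched with BLAST+ 2.17.0 in the last 500 nt at 95% identity over at least 60 nt. The reference is a C57BL/6 genome, so alignment can lose BALB/c reads that carry mismatches.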

Additional observations from a re-analysis of the deposited data

How the results depend on the processing

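The precision was set by 3 libraries per strain and a biological coefficient of variation of 41.1%, so members that did not pass are not shown to be equal. Over 16 alternatives each, 126 of 128 values of the members kept their direction and 3, all of Adamts4, passed the threshold. The count of members past it was 1 with DESeq2 and 1 with library quality weights, and 0 to 1 when a library was left out. Over all genes the count of 18 became 11 with library totals alone, 71 with DESeq2, 3 with limma-voom, 57 with library quality weights and 0 to 25 in edgeR when a library was left out (25 without C57BL/6 replicate 1, 4 without BALB/c replicate 1, 5 without C57BL/6 replicate 2 and 0 without replicate 3 of either strain or BALB/c replicate 2). Libraries with the same replicate number did not deviate together (correlations of -0.42, -0.40 and -0.08, and 0 of 6 libraries correlated best with their own number), and with the replicate number as a block 0 genes passed, with Adamts4 at -2.20.

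Direction turned in these cases, none past the threshold. With library quality weights Timp1 was 0.061, Adamts1 -0.016, Adam15 0.20 and Lrp1 0.091. Mmp10 was 0.25 with limma-voom and 0.21 with the replicate block. With a library left out, Mmp10 was -0.89 to 0.28, turning without C57BL/6 replicate 2, and Lrp1 was -0.38 to 0.19, turning without replicate 2 of either strain. Bgn, at 0.00, was -0.013 with RLE size factors, -0.0091 without a filter, -0.013 with DESeq2, -0.0010 with the block, -0.16 with the epithelial covariate and -0.30 to 0.22 with a library left out.

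The log2 protease to TIMP difference became 0.39 with Mmp9 added and -0.26 without Timp1, and for the MMPs alone 0.43 and -0.26. The ADAMTS to Timp3 difference of -0.04 became -0.39 with mean log2 CPM in place of sums, and -0.17 to 0.08 when a library was left out. With a library left out, the protease to TIMP difference was -0.52 to -0.38 and that of the MMPs -0.53 to -0.37. The cause was not tested.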

Other observations

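Type IV collagen, the basement membrane collagen cut by both gelatinases, had the lowest p among the listed substrates of these proteases. BALB/c libraries had 446 ± 109 CPM of Col4a1 and 423 ± 121 CPM of Col4a2 (SD, n = 3). C57BL/6 libraries had 953 ± 280 CPM of Col4a1 and 747 ± 192 CPM of Col4a2 (SD, n = 3). The log2 differences were -1.09 ± 0.32 and -0.82 ± 0.31 (edgeR adjusted p = 0.882 and 0.954). Of 21 listed substrates 14 were tested and 0 passed, with a median log2 difference of 0.08. The abundant Fn1, fibronectin, was at 0.65 ± 0.49 and Bgn, biglycan, at 0.00 ± 0.34. Fn1 was at 704 CPM in C57BL/6 replicate 1 and 2588 to 3879 CPM in the other libraries. Its difference was 0.23 ± 0.20 without that library and 0.98 ± 0.54 without C57BL/6 replicate 2. Bgn was at -0.30 to 0.22 with single libraries left out. Of 10 ADAM proteases, membrane enzymes that shed surface proteins, 7 were tested and 0 passed, with a median of 0.09. Adam8 was at -0.69 ± 0.34, Adam19 at 0.27 ± 0.26, Adam12 at 0.51 ± 0.66 and Adam15 at -0.23 ± 0.31. Without C57BL/6 replicate 1, Adam12 was at 0.015 and Adam15 at -0.0021. Without C57BL/6 replicate 3, Adam12 was at 1.03, Adam15 at -0.48 and Adam19 at 0.12. Adam12 was at 0.17 without BALB/c replicate 3, and Adam15 at -0.11 without BALB/c replicate 2.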
